A study of Rattus norvegicus with 13 samples.

Results

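The 3 entries described here are the ones annotated to the miR-210 locus of the rat, out of 460 mature rat miRNAs counted in kidney: miR-210-3p, miR-210-5p and miR-3574. They were chosen by name, with earlier results of these data known. All 3 passed the filter on low counts, as did 419 of the 460 rat miRNAs. The study deposited 13 small RNA libraries, each from a kidney taken on day 35, of female Wistar rats of the inbred WAG/RijCmcr strain whose age at irradiation was 11 to 12 weeks and whose weight was near 155 g. Control animals (n = 4) were of the same age and had no radiation (0 Gy). The irradiated animals (n = 4) were exposed to 13 Gy of X-rays (320 kVp, dose rate 1.75 Gy per minute). The exposure covered the whole body except for a shielded hind limb. No lisinopril is labelled for them, and irradiation alone below means irradiation without lisinopril, with the supportive care given below. The third group (n = 5) had the same exposure and, from day 7 on, lisinopril in the drinking water at about 24 mg per square metre per day. Lisinopril blocks the angiotensin converting enzyme and is used against high blood pressure and kidney disease. Supportive care after irradiation was saline at 40 ml per kg per day on days 3 to 7 and the antibiotic enrofloxacin at 10 mg per kg per day up to day 14. The labels do not say whether control rats had this care too, nor that each kidney came from a different rat, so that p-values measure the spread between these samples.

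miR-210 is the miRNA most regularly induced when cells lack oxygen. Its gene is switched on by hypoxia-inducible factor, and the mature 3p strand, the guide strand loaded into Argonaute, is known to lower transcripts such as those of the iron-sulfur cluster scaffold ISCU and thereby mitochondrial respiration. In kidney it is best known for high levels in clear cell carcinoma, where loss of VHL keeps the factor active. The 5p strand is the passenger strand of the same hairpin and is usually much scarcer.

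The 3 mature sequences are shown because they decide how the counts can be read. They are the RefSeq entries for the GRCr8 build (3 of 3 members matched by name), written 5′ to 3′ with the seed, bases 2 to 8, in capitals.
rno-miR-210-3p: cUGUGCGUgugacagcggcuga
rno-miR-210-5p: aGCCACUGcccacagcacacug
rno-miR-3574: uCAGCCGCugucacacgcacag
No other mature rat miRNA of that table shares any of these 3 seeds. miR-210-3p lies at chr1:205755946-205755967 on the minus strand, and miR-3574 lies at the same 22 positions on the plus strand. All 22 bases of miR-3574 are the complement of miR-210-3p, read in the opposite direction. miR-210-5p lies at chr1:205755984-205756005 on the minus strand. The reads were aligned to an older build, rn4, so these positions place the sequences and not the reads.

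The hairpin of miR-210, with both mature strands in capitals, shows the distance between the arms.
rno-mir-210 hairpin: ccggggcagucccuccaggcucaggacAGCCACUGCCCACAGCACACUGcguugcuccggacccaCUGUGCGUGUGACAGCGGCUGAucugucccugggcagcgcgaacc
It is 110 bases long, with the 5p strand at bases 28 to 49 and the 3p strand at bases 66 to 87. The annotated miR-3574 hairpin covers the whole of it on the opposite strand and extends 6 and 2 bases past its ends. In the annotation the locus lies within the span of the long noncoding RNA gene LOC102553043, between the protein-coding genes Rassf7 and Phrf1.

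Libraries held 1194175 to 11095939 counts over rat miRNAs. Control library 2 was the shallowest and had 37 rat miRNAs at 0, against 0 to 3 in each of the others. Levels are given in CPM, read counts relative to the TMM-corrected library size, and the level of 3 counts, used as the floor, was 3.19 CPM in control library 2 and 0.289 to 0.561 CPM elsewhere. This floor covers counting error only. All 7 kidney tubule markers looked for (among them miR-192-5p, miR-194-5p and miR-204-5p) were present in every library and together made up 345614 to 737336 CPM. miR-10a-5p led them, at 251361 to 562055 CPM.

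miR-210-3p, the guide strand, was nearly constant in control kidneys with TMM scaling and higher in every irradiated kidney, with or without the drug. In control libraries 1 to 4 it stood at 170, 174, 176 and 190 CPM. In irradiated libraries 1 to 4 it stood at 241, 355, 223 and 221 CPM. In lisinopril libraries 1 to 5 it stood at 255, 235, 213, 235 and 240 CPM. The highest control and the lowest of the 9 irradiated kidneys were 23.3 CPM apart, so that the groups did not overlap, and a single irradiated library, number 2, stood well above the rest. These levels rest on 164 counts in control library 2 and on 1287 to 2863 counts in each of the other libraries. They place miR-210-3p at ranks 88 to 123 among the 460 rat miRNAs.

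**Figure D1:**
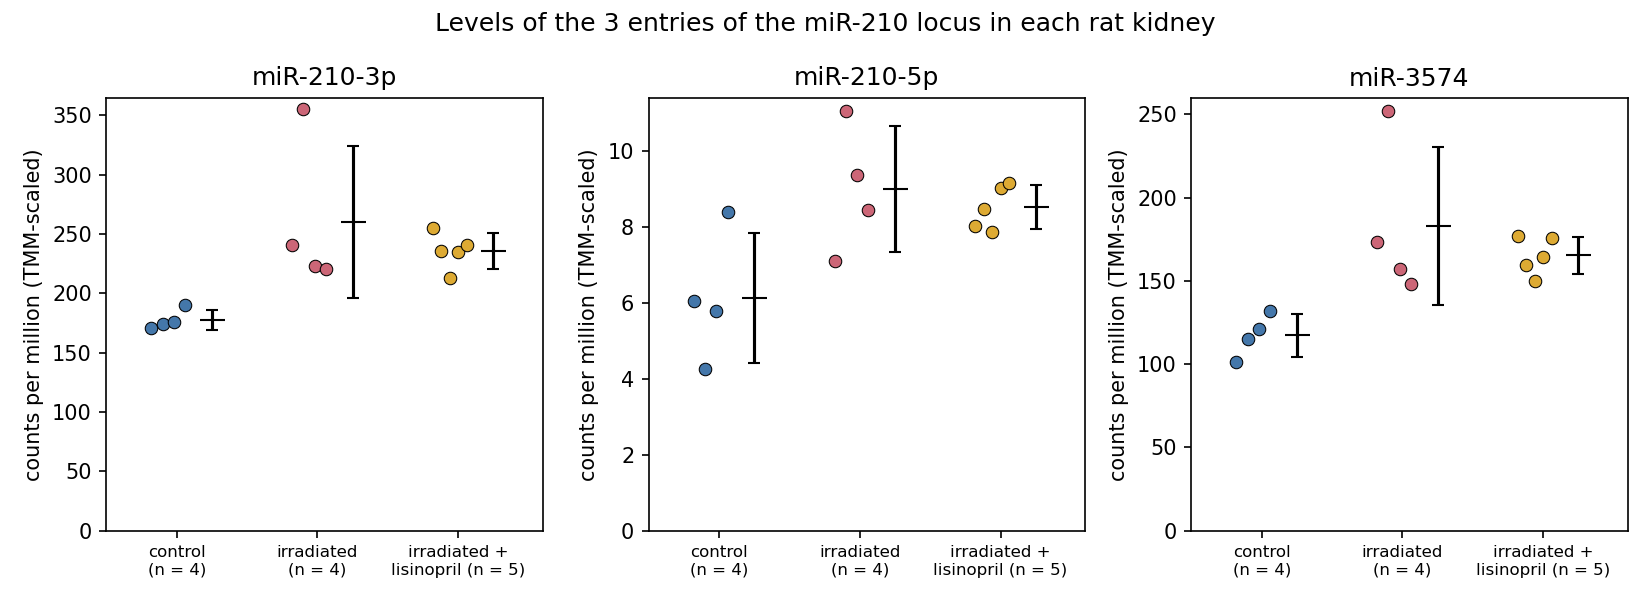
Level in CPM (TMM-scaled) of miR-210-3p, miR-210-5p and miR-3574 by library (points: 4 control, 4 irradiated and 5 lisinopril kidneys); bars give mean ± SD. For miR-210-3p the 4 controls lie at 170 to 190 CPM and all 9 irradiated kidneys at 213 CPM or above.

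By group, miR-210-3p was at 178 ± 8.43 CPM in control kidneys (SD, n = 4), 236 ± 15.1 CPM in irradiated kidneys with lisinopril (n = 5) and 260 ± 64.1 CPM in irradiated kidneys without it (n = 4). The coefficient of variation was 4.74%, 6.42% and 24.7% in that order. The first step of this order, from control to either irradiated group, is free of overlap, and the last 2 groups do not differ beyond their spread. In whole kidney, more miR-210 per cell and more cells of a type that carries it cannot be told apart.

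Taking both irradiated groups with equal weight against control, miR-210-3p rose 1.39-fold (95% interval 1.15 to 1.69). The log2 fold change was 0.48 (SE 0.129, edgeR quasi-likelihood test, Benjamini-Hochberg adjusted p = 0.0387 over 419 miRNAs). Of all tested miRNAs 7.64% were called in this comparison and 2.15% were called higher, that is 9 miRNAs, of which miR-210-3p and miR-3574 are 2. All 9 irradiated kidneys were above all 4 controls, and the exact permutation p (two-sided, on log2 CPM) was 0.0014, the smallest possible with 9 and 4 libraries. Such a separation upward was seen for 1.91% of tested miRNAs. By size of change miR-210-3p was number 40 of 419 from the top, so that its difference was modest. The spread among its controls was small with TMM scaling. The call was a narrow one: the adjusted p was 0.0583 to 0.102 when any 1 of control libraries 1 to 4 or lisinopril libraries 2, 4 and 5 was left out. It was 0.016 without irradiated library 2, at a log2 fold change of 0.38.

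Irradiation alone and irradiation with lisinopril each gave a positive difference from control that did not pass the adjusted test in edgeR, and each passed under some other settings. These 2 comparisons share their control libraries. For irradiated against control kidneys the log2 fold change of miR-210-3p was 0.55 (SE 0.148, edgeR adjusted p = 0.0709), a ratio of 1.46 with a 95% interval of 1.17 to 1.82. In this comparison 1.67% of tested miRNAs were called. The exact permutation p (two-sided) was 0.0286, the smallest possible with 4 and 4 libraries, and 2.63% of tested miRNAs were separated upward as miR-210-3p was. Without irradiated library 2 the log2 fold change was 0.36 and the adjusted p 0.124, while without irradiated library 4 they were 0.64 and 0.0243, so that single libraries decided on which side of the threshold it fell. DESeq2 called miR-210-3p higher (adjusted p = 0.0141), while in an edgeR fit of these 2 groups alone the adjusted p was 0.211. Of the 419 tested miRNAs DESeq2 called 19 higher and 18 lower here. It was the only 1 of 12 other settings in which miR-210-3p passed.

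For lisinopril-treated irradiated kidneys against control the log2 fold change of miR-210-3p was 0.41 (SE 0.141, edgeR adjusted p = 0.0971), a ratio of 1.33 with a 95% interval of 1.08 to 1.63. Here 6.21% of tested miRNAs were called. All 5 treated kidneys were above all 4 controls (two-sided exact permutation p = 0.00794, the smallest possible with 5 and 4 libraries), as was the case for 5.97% of tested miRNAs. Without irradiated library 2, which is not in this comparison but enters the shared estimate of the spread, the adjusted p was 0.0142 at a log2 fold change of 0.40. In a fit of these 2 groups alone it was 0.0226, and with limma-voom and sample quality weights 0.0286. These were the exceptions: miR-210-3p passed in 2 of 12 other settings and in 1 of 13 fits with a library left out. The adjusted p was 0.0932 with DESeq2 and 0.106 with limma-voom without weights.

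No difference in miR-210-3p with lisinopril passed the test among irradiated kidneys. Between the groups with and without the drug the log2 difference was -0.14 (95% interval -0.44 to 0.16, edgeR adjusted p = 0.619), which corresponds to a ratio between 0.738 and 1.11. The ranges overlapped, and the two-sided exact permutation p was 0.651. The sign rested on irradiated library 2, without which the difference was 0.04. In this comparison 0% of all tested miRNAs were called by edgeR. There were 63 at an unadjusted p under 0.05 (15% of those tested), DESeq2 called 4 higher and 7 lower, limma-voom called 0 higher and 2 lower, and weighting the samples by quality raised this to 16 higher and 17 lower.

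**Figure D2:**
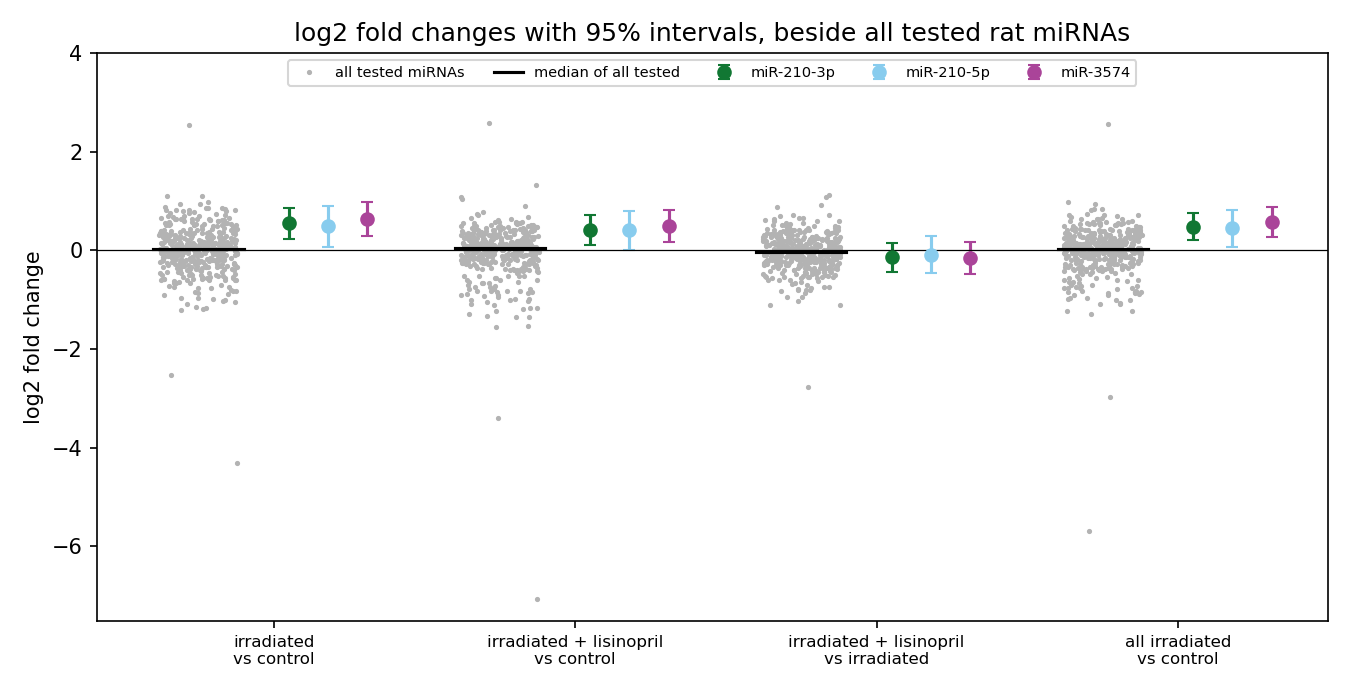
log2 fold change of miR-210-3p, miR-210-5p and miR-3574 with 95% intervals (coloured) in 4 comparisons, beside the log2 fold changes of all 419 tested rat miRNAs (grey points) and their median (black line). The 3 entries lie at 0.40 to 0.64 in the comparisons with control and at -0.15 to -0.08 between the irradiated groups.

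miR-210-5p, the passenger strand, was scarce in every group, and its differences pointed the same way as those of the guide strand without passing the test. It stood at 6.05, 4.25, 5.79 and 8.37 CPM in control libraries 1 to 4. It stood at 7.10, 11.0, 9.35 and 8.42 CPM in irradiated libraries 1 to 4 and at 8.01, 8.46, 7.86, 9.02 and 9.16 CPM in lisinopril libraries 1 to 5. Control library 4 lay within the range of both irradiated groups, and irradiated library 2 was again the highest. The value of control library 2 came from 4 counts, close to its floor of 3.19 CPM, whereas the other libraries held 38 to 93 counts.

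Against control, the log2 fold change of miR-210-5p was 0.45 for both irradiated groups together (SE 0.172, edgeR adjusted p = 0.13), 0.49 for irradiation alone (adjusted p = 0.152) and 0.40 for irradiation with lisinopril (adjusted p = 0.217). Between the irradiated groups it was -0.08, with a 95% interval of -0.46 to 0.30. The two-sided exact permutation p of the first of these was 0.00559. Its group means were 6.12 ± 1.70 CPM in control, 8.98 ± 1.66 CPM in irradiated and 8.50 ± 0.582 CPM in lisinopril kidneys (SD, n = 4, 4 and 5).

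The balance between the arms, which needs no scaling between libraries, did not differ detectably between the groups. The 5p strand made up 2.38% to 4.23% of the counts of both arms in the control libraries, 2.87% to 4.02% in the irradiated ones and 3.04% to 3.70% in the lisinopril ones. The lowest share, in control library 2, has an exact 95% binomial interval of 0.652% to 5.98%, which holds the point values of all the other libraries. This interval covers counting error only. Over all libraries there were 22348 counts of the 3p strand and 804 of the 5p strand. For both irradiated groups against control the mean log2 ratio of 5p to 3p differed by 0.08 (two-sided exact permutation p = 0.562). Adjusted over the 4 comparisons, each p was 0.8. The sign of these small differences turned when single libraries were left out.

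miR-3574, annotated antisense to the guide strand, followed miR-210-3p from library to library. It stood at 101, 115, 121 and 132 CPM in control libraries 1 to 4 and at 173, 252, 157 and 148 CPM in irradiated libraries 1 to 4. In lisinopril libraries 1 to 5 it stood at 177, 160, 150, 165 and 176 CPM. All 9 irradiated kidneys were above all 4 controls, with irradiated library 2 highest, as for miR-210-3p. The ratio of miR-3574 to miR-210-3p counts lay between 0.593 and 0.731 in all 13 libraries. It was 0.658 ± 0.0459 in control (SD, n = 4), 0.702 ± 0.0212 in irradiated (n = 4) and 0.701 ± 0.0195 in lisinopril kidneys (n = 5), with overlapping ranges.

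The 2 sequences cover the same 22 bases on opposite strands, and neither the labels nor the processing notes say whether counting used strand. The counts of miR-210-3p and miR-3574 differed in every library, yet whether and how far the entries share reads cannot be told from them. The values of miR-3574 therefore cannot be taken as a second, independent measurement of the locus. Its log2 fold change was 0.57 for both irradiated groups against control (SE 0.142, edgeR adjusted p = 0.0267), 0.64 for irradiation alone (adjusted p = 0.065), 0.50 for irradiation with lisinopril (adjusted p = 0.0747) and -0.15 between the irradiated groups (adjusted p = 0.646). The call for both irradiated groups did not pass without control library 1 (adjusted p = 0.0963) or control library 2 (0.0693). With miR-3574 removed from the table, miR-210-3p kept a log2 fold change of 0.48 and an adjusted p of 0.0405 against control. This removal leaves the counts of miR-210-3p unchanged, so it cannot show whether the 2 entries share reads.

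The same arrangement occurs elsewhere in the table. Of pairs of mature rat miRNAs that RefSeq places on exactly the same bases of opposite strands, 6 had both entries counted. Beside miR-3574 to miR-210-3p, the ratio of counts over the 13 libraries was 0.733 to 0.77 for miR-3588 to miR-125b-5p, 0.802 to 0.884 for miR-3557-3p to miR-378a-5p and 0.883 to 0.979 for miR-3570 to miR-181a-1-3p. For miR-3578 to miR-369-5p it was 0.857 to 1.03, so that either entry could be the more abundant. The sixth pair was let-7a-5p and miR-3596a (0.211 to 0.302), given as let-7a-5p to miR-3596a, where let-7a-5p is made from 2 loci.

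**Figure D3:**
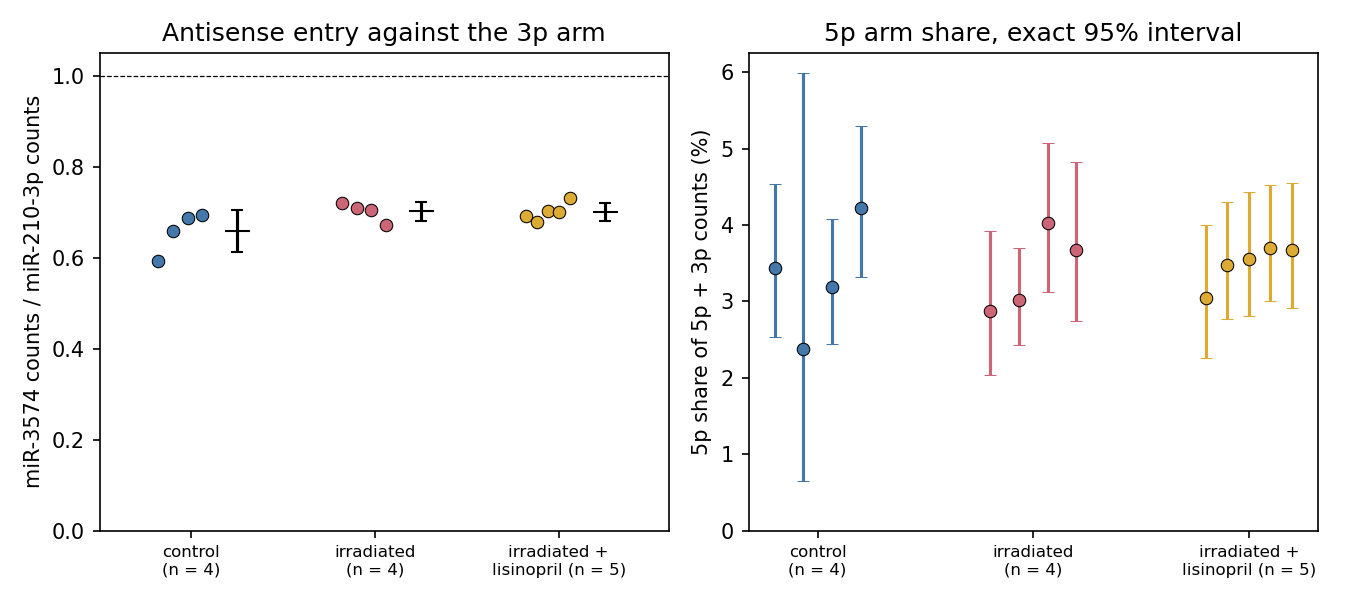
Left, ratio of miR-3574 to miR-210-3p counts in each library (points) with the group mean ± SD, the dashed line marking equal counts. Right, share of miR-210-5p in the counts of both arms in percent, with exact 95% binomial intervals, in the 4 control, 4 irradiated and 5 lisinopril libraries; the ratios lie between 0.593 and 0.731 and the shares between 2.38% and 4.23%.

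Scaling moved the size of these differences and not their direction against control. With libraries scaled by their totals alone, the log2 fold change of miR-210-3p for irradiation alone was 0.81, while the median over all tested miRNAs moved from 0.02 to 0.26. Relative to that median the difference was 0.53 with TMM and 0.55 with totals alone. By totals alone miR-210-3p stood at 156, 137, 194 and 177 CPM in control libraries 1 to 4, a wider spread than with TMM. Every irradiated kidney stood at 201 CPM or above, so that the gap between the groups was narrower.

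No other miRNA of a list reported as responsive to hypoxia passed the test. Of the 21 on the list 20 were tested (miR-346 is not analysed here), and edgeR called 0 higher and 0 lower in each of the 4 comparisons. Of all tested miRNAs 1.67% were called for irradiation alone, 6.21% for irradiation with lisinopril, 0% between the irradiated groups and 7.64% for both irradiated groups against control, so that 0 of 20 is near the background. At an unadjusted p under 0.05 there were 5 of 20 for irradiation alone (22.2% of all tested miRNAs), 5 for irradiation with lisinopril (22.7% of all), 4 between the irradiated groups (15% of all) and 4 for both irradiated groups against control (23.9% of all). For both irradiated groups against control the list had a median log2 fold change of 0.01, beside 0.04 for all tested miRNAs, and 11 of its 20 members had a positive value. miR-210-3p, which is not in that count, was at 0.48. The list was not split by the direction in which hypoxia is reported to move each miRNA. Its median and its count of positive values therefore do not show whether its members responded.

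Of the 4 list members at an unadjusted p under 0.05 in that comparison, 3 had negative values and miR-107-3p, named after its value was seen, a positive one (0.25, edgeR adjusted p = 0.182). miR-155-5p, an inflammatory miRNA that hypoxia can also induce, was at 38.4 ± 8.38 CPM in control (SD, n = 4) and 25.4 ± 5.003 CPM in the 9 irradiated kidneys (log2 fold change -0.59, edgeR adjusted p = 0.0682). miR-26b-5p was at 5798 ± 666 CPM and 4631 ± 552 CPM (-0.33, adjusted p = 0.0758), and its relative miR-26a-5p at 55813 ± 4241 CPM and 48574 ± 3854 CPM (-0.21, adjusted p = 0.181). DESeq2 called miR-155-5p lower in this comparison, as it did 23 of all 419 tested miRNAs. limma-voom, with or without quality weights, called none of the 20. For irradiation alone the 3 with the smallest p were miR-26b-5p (log2 fold change -0.39, edgeR adjusted p = 0.0949), miR-155-5p (-0.57, 0.135) and miR-21-5p, an injury-induced miRNA (-0.60, 0.143). DESeq2 called miR-26b-5p lower there, as it did 18 of all 419 tested miRNAs, and limma-voom called none of the list. Pointed out after their values were seen, the scarce miR-20b-5p (0.81, adjusted p = 0.244, 0.641 ± 0.589 CPM in control and 1.42 ± 0.311 CPM in irradiated kidneys) and miR-130b-3p (0.60, adjusted p = 0.189, 3.92 ± 1.69 and 6.5 ± 1.54 CPM) had larger positive edgeR values than miR-210-3p for irradiation alone.

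With lisinopril against irradiation alone, the 2 list members with the smallest edgeR p are known to act on hypoxia-inducible factor or its degradation. miR-322-5p, the rodent counterpart of miR-424, was at 240 to 388 CPM in irradiated kidneys without the drug and 453 to 572 CPM with it. miR-199a-5p was at 330 to 400 CPM without the drug and 413 to 508 CPM with it. Neither range overlapped between the groups, a separation upward that held for 2.15% of tested miRNAs, and both missed the threshold (edgeR adjusted p = 0.0931 and 0.165). Both were called higher by DESeq2 and by limma-voom with quality weights, which also called miR-27b-3p (log2 difference 0.35, edgeR adjusted p = 0.248). Over all 419 tested miRNAs DESeq2 called 4 higher between the irradiated groups and limma-voom with quality weights 16. Against control the same 2 were at 0.43 (miR-322-5p) and 0.34 (miR-199a-5p), with edgeR adjusted p of 0.0971 and 0.0744, and miR-155-5p at -0.60 (0.0971). There DESeq2 called miR-199a-5p higher, and limma-voom with quality weights called miR-322-5p and miR-199a-5p higher. Without weights, limma-voom called none of the list against control or between the irradiated groups. Over all 419 tested miRNAs DESeq2 called 6 higher against control and limma-voom with quality weights 17. For miR-210-3p the log2 difference was -0.14 between the irradiated groups and 0.41 for irradiation with lisinopril against control.

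**Figure D4:**
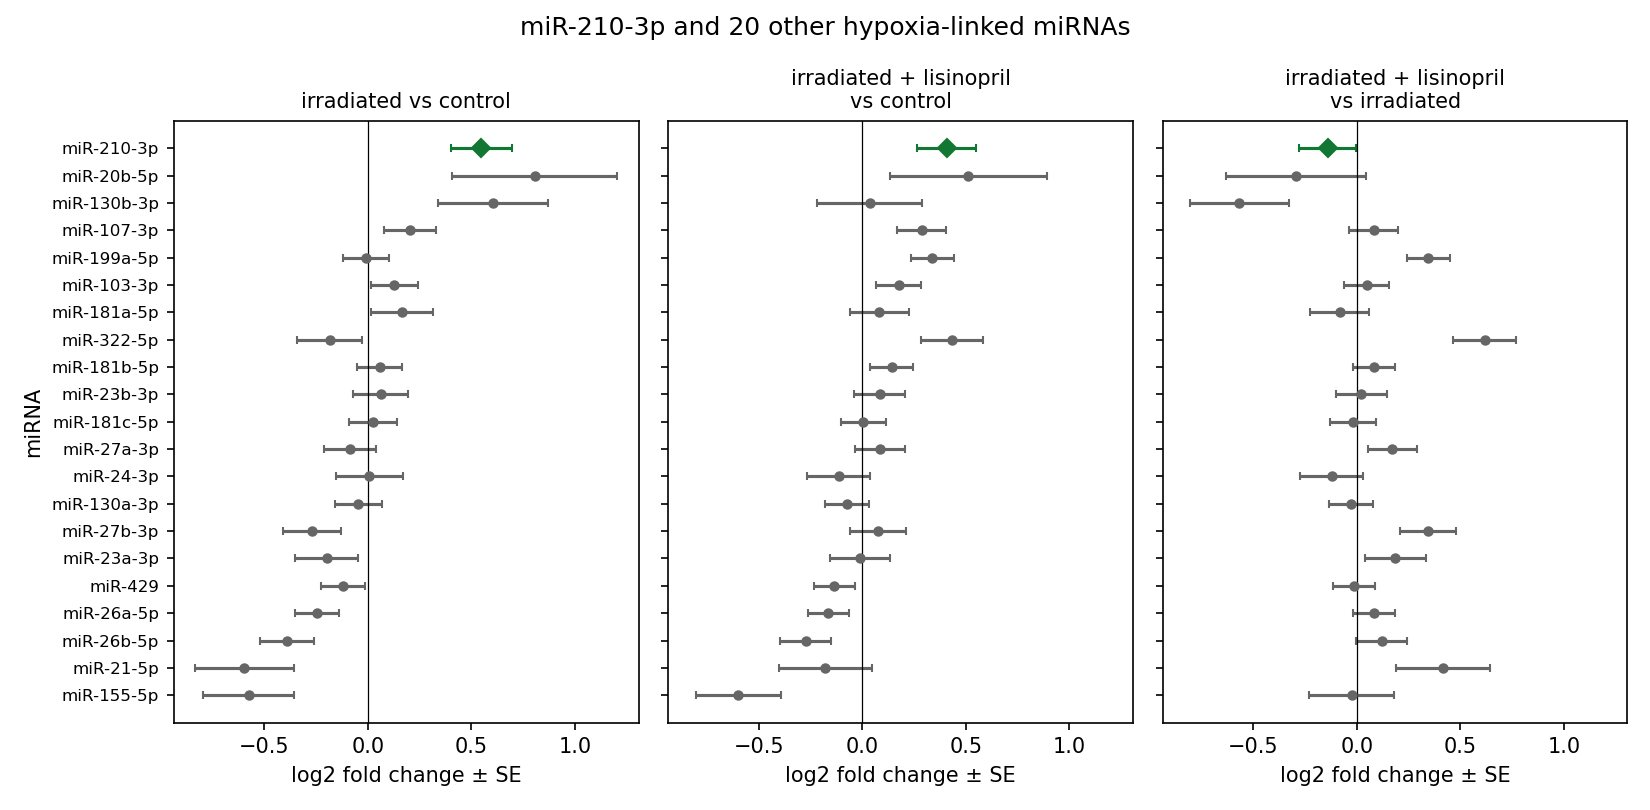
log2 fold change ± SE of miR-210-3p (green diamonds) and of 20 other miRNAs reported as hypoxia-responsive (grey points), in 3 comparisons. miR-210-3p lies at 0.55 and 0.41 against control and at -0.14 between the irradiated groups, while the other 20 lie on both sides of 0.

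The miRNAs most like miR-210-3p across the 13 libraries, out of 281 with a mean of at least 10 CPM, were let-7i-3p (Pearson r of log2 CPM 0.93, Spearman rho 0.90), miR-326-3p (0.92, 0.89), miR-92a-3p (0.91, 0.86), miR-1247-5p (0.90, 0.86) and miR-214-3p (0.90, 0.66). The median r over the 281 was 0.05. These values are descriptions of 13 libraries that share their scaling and include a step between groups and a library far from the rest. With group means removed r was 0.85, 0.86, 0.88, 0.78 and 0.78 in the same order. Without irradiated library 2 and control library 1, the libraries farthest from the median of miR-210-3p, it was 0.84, 0.82, 0.77, 0.81 and 0.71. Within the locus, r with miR-210-3p was 0.98 for miR-3574 and 0.77 for miR-210-5p.

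These 5 were chosen for following miR-210-3p, so their levels are a description and no support for it, and edgeR called none of them for irradiation alone (adjusted p = 0.0709 to 0.0949). For both irradiated groups against control edgeR called miR-1247-5p (log2 fold change 0.83, adjusted p = 0.0433) and miR-214-3p (0.71, 0.0456) higher. In that comparison 2.15% of all tested miRNAs were called higher. let-7i-3p was at 9.32 ± 1.24 CPM in control and 14.4 ± 4.12 CPM in irradiated kidneys, and miR-326-3p at 41.2 ± 5.79 and 75.1 ± 31.7 CPM. miR-214-3p, one of the smooth muscle and fibroblast markers listed below, was at 49.4 ± 6.41 and 88.5 ± 39.9 CPM (SD, n = 4 each). The ranges of both groups overlapped for let-7i-3p, miR-326-3p and miR-92a-3p.

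Markers of tubule cells and of other cell types were counted beside these results. The summed tubule markers had a median of 553579 CPM in control, 380582 CPM in irradiated and 564329 CPM in lisinopril kidneys, with overlapping ranges between control and either irradiated group. miR-10a-5p, the most abundant of the 7, was at -0.54 for irradiation alone (log2 fold change, edgeR adjusted p = 0.0931) and -0.13 for irradiation with lisinopril (0.764). For both irradiated groups against control edgeR called 1 of 5 smooth muscle and fibroblast markers higher (miR-214-3p, log2 fold change 0.71, adjusted p = 0.0456, with 2.15% of all tested miRNAs called higher), 1 of 4 leukocyte markers lower (miR-223-3p, -0.48, adjusted p = 0.0375, with 5.49% of all tested miRNAs called lower) and 0 of 5 erythroid, 0 of 2 endothelial and 0 of 3 muscle and neural markers. The summed smooth muscle and fibroblast markers (led by miR-143-3p) ranged over 28468 to 40492 CPM in control, 32740 to 38208 CPM in irradiated and 27443 to 55527 CPM in lisinopril kidneys. The summed leukocyte markers (led by miR-150-5p) ranged over 648 to 976, 799 to 1232 and 642 to 1401 CPM, the summed erythroid markers (led by miR-486) over 939 to 2126, 812 to 4254 and 704 to 3518 CPM, and the summed endothelial markers (led by miR-126a-5p) over 11645 to 14615, 8537 to 14043 and 10147 to 15599 CPM. The muscle and neural markers (led by miR-9a-5p) ranged over 278 to 356, 227 to 461 and 372 to 522 CPM, with miR-122-5p and miR-124-3p not analysed here. Of these markers miR-144-5p was at 0 in lisinopril library 3 and none of the others was at 0 in any library. Irradiated library 2, the highest for miR-210-3p, had the lowest tubule markers (345614 CPM), 1696 CPM of erythroid, 1232 CPM of leukocyte and 8537 CPM of endothelial markers. The part of these cell types in the level of miR-210-3p was not tested.

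**Figure D5:**
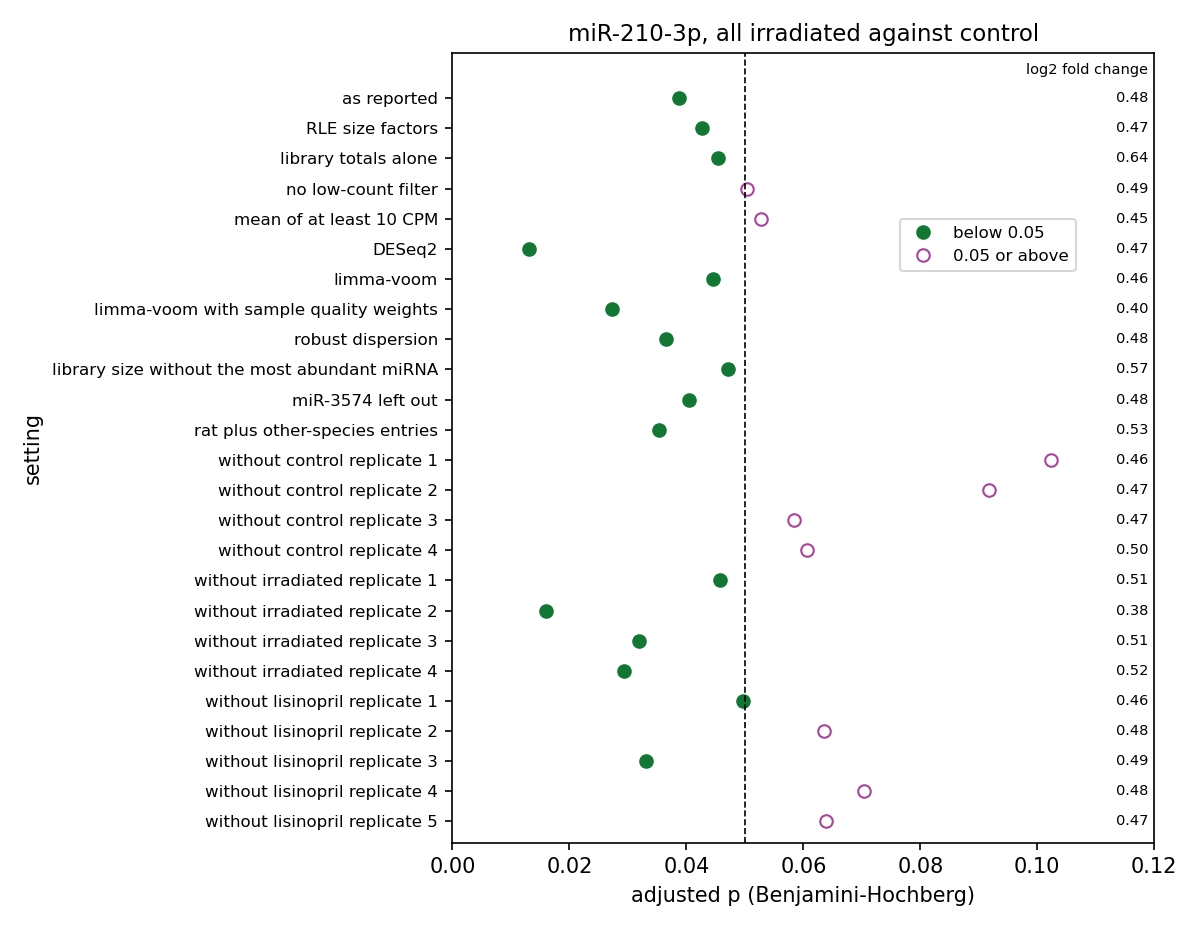
Adjusted p (Benjamini-Hochberg) of miR-210-3p for both irradiated groups against control as reported, under each other setting and with each library left out, with the log2 fold change printed at the right; the dashed line is the threshold of 0.05. The log2 fold changes run from 0.38 to 0.64 and the adjusted p from 0.0131 to 0.102.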

How the data were processed

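Kidney small RNA was sequenced in 13 libraries (TruSeq kit, 1 ug of Trizol RNA, per the labels' protocols). The submitters' processing notes name Trim Galore 0.2.5, Bowtie 1.1.1 and the build rn4; they name no counter and no strand setting. The authors deposited whole-number read counts per miRNA, not normalized. Groups follow the labels, which give no batch or pairing; replicates are numbered in sample order. From the counts, the 460 mature rat miRNAs were filtered with filterByExpr (41 removed), scaled by TMM (factors 0.787 to 1.19) and fitted in R 4.3.3 with edgeR 4.0.16 (quasi-likelihood, a mean per group over all 13 libraries, biological coefficient of variation 0.247), with Benjamini-Hochberg adjustment over 419 and a threshold of 0.05. log2 CPM, with a prior count of 2, entered permutation tests and correlations only. DESeq2 1.42.0 and limma 3.58.1, other scalings, filters and left-out libraries were alternatives. The fit was also run on data simulated from its own estimates of the spread. Such a run cannot show whether those estimates suit the real libraries.

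The members and lists were chosen with earlier results of these data known. Named miRNAs are the 3 members, the called or otherwise 3 smallest-p miRNAs of the hypoxia list per comparison, the 5 most like miR-210-3p (mean of at least 10 CPM), and the most abundant of each marker list. Pairs on opposite strands and called markers were named after their values were seen.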

Additional observations from a re-analysis of the deposited data

Results flagged for a closer look

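Irradiated library 2 held miR-210-3p at 355 CPM, far above the other 3 irradiated libraries without the drug (221 to 241 CPM): its gap to the nearest of them was 0.852 of the range of the group, beyond the 0.829 that Dixon's test allows for 4 samples. Among 15 such checks (the 3 entries, the ratio of miR-3574 to miR-210-3p and the 5p share, each in 3 groups) this was the only one past its limit, and chance alone flags about 1 group in 20. The same library was the highest of its group for miR-3574 (252 CPM, 0.757 of the range) and for miR-210-5p (11.0 CPM, 0.43 of the range). For levels, the checks used TMM-scaled values only. By library totals alone miR-210-3p stood at 263, 422, 257 and 225 CPM in irradiated libraries 1 to 4. There the gap is a smaller part of the range, and the flag depends on the scaling.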

How the results depend on the processing

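Values are log2 differences, with adjusted p in parentheses where given. For both irradiated groups against control, miR-210-3p did not pass with no low-count filter (0.49, 0.0503) or with only miRNAs of at least 10 CPM (0.45, 0.0528). For irradiation alone, DESeq2 called miR-210-3p (0.55, 0.0141) and miR-3574 (0.64, 0.00715). For lisinopril against control both passed with limma-voom and sample quality weights (miR-210-3p 0.38, 0.0286; miR-3574 0.47, 0.0188) and in a fit of those groups only (0.42, 0.0226; 0.51, 0.0191). The same kind of fit for irradiation alone raised the adjusted p of both to 0.211. Between the irradiated groups miR-210-5p turned to 0.018 with quality weights. In place of miR-210-3p, miR-3574 counts (added after seeing the data) turned the arm difference to -0.039 for irradiation alone and -0.00934 for both groups. The cause was not tested in any of these.

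Leaving out each library in turn gave, for irradiation alone, 0.36 to 0.64 (miR-210-3p), 0.37 to 0.64 (miR-210-5p) and 0.45 to 0.75 (miR-3574). The highest miR-3574 value, without irradiated library 4, passed (0.0227). For lisinopril against control the ranges were 0.38 to 0.46, 0.34 to 0.59 and 0.43 to 0.56 in the same order. miR-3574 passed without irradiated library 2 (0.49, 0.0137). Between the irradiated groups they were -0.24 to 0.037, -0.21 to 0.021 and -0.26 to 0.040, positive without irradiated library 2 only. For both groups against control they were 0.38 to 0.52, 0.38 to 0.62 and 0.47 to 0.62.

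The difference in log2 5p to 3p ratio ranged from -0.096 to 0.19 for irradiation alone, -0.045 to 0.24 for lisinopril against control, -0.028 to 0.14 between the irradiated groups and -0.068 to 0.22 for both groups. It was negative against control without control library 2 and, for irradiation alone (-0.033), without irradiated library 3. Between the irradiated groups it was negative without irradiated library 1 or 2 (-0.00296).

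Calls over all miRNAs ranged, over the other settings, from 1 to 19 higher and 0 to 18 lower for irradiation alone (2 and 5 as reported), 2 to 17 and 15 to 37 for lisinopril against control (3 and 23), 0 to 16 and 0 to 17 between the irradiated groups (0 and 0), and 4 to 13 and 12 to 45 for both groups (9 and 23). Over left-out libraries they ranged from 1 to 35 and 0 to 25, 2 to 17 and 11 to 27, 0 to 20 and 0 to 27, and 3 to 24 and 13 to 30. The upper ends of 35 and 25 and of 20 and 27 came without irradiated library 4. No paired analysis was possible because the labels give no replicate numbers. A fit of only the groups compared is the reported fit for both groups against control. DESeq2 gave no adjusted p for miR-210-5p between the irradiated groups, and the 10 CPM filter removed it.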
